A study of Mus musculus with 16 samples.

Results

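The regions described here were open in E12.0 progenitors of the mouse cochlea and were listed in no E13.5 library. Intervals of 6 ATAC-seq peak lists on chromosomes 1 to 19 and X were merged where they shared at least 1 bp. A region was chosen when at least 2 of the 3 E12.0 lists and none of the 3 E13.5 lists held it. Members were thus chosen by presence or absence of ATAC intervals, and no other readout. The rule gave 2914 of 335268 merged regions (0.869%), called members below. The choice itself uses the ATAC lists, so the numbers, widths and folds of the members describe them and are not tested.

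The study profiled sorted progenitors of the organ of Corti, the sensory epithelium that holds the hair cells and supporting cells of hearing, and its title names Yap/Tead-mediated self-renewal. One group was Sox2-GFP positive cells sorted from cochleae at E12.0, and the other was p27-GFP positive cells at E13.5. ATAC-seq, which marks open chromatin by transposase insertion, had 3 libraries per stage. RNA-seq and CUT&RUN for the histone mark H3K27ac had 2 libraries per stage, and CUT&RUN with a pan-Tead antibody had 2 libraries at E12.0 only. The labels name no further allele or agent. Nothing in them ties a replicate to its own litter or sort, so the spread may be technical. Age and sorting reporter changed together, and their parts in any stage difference cannot be told apart. Fewer cells of a type and less signal per cell cannot be told apart either in these bulk samples.

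Open regions away from promoters often act as enhancers, and H3K27ac, an acetylated histone residue, marks enhancers and promoters in use. Tead proteins bind DNA and recruit Yap and its relative Wwtr1 (Taz), which the Hippo kinases restrain. In the prosensory domain of the cochlea, progenitors divide under the influence of Sox2 and then leave the cell cycle as Cdkn1b (p27Kip1), a cyclin-dependent kinase inhibitor, accumulates.

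The sorted cells carried the RNA of their reporters. Cdkn1b measured 7.70 and 8.59 CPM (counts scaled to library size) at E12.0, then 228.5 and 182.3 at E13.5. Sox2 measured 36.9 and 39.4 CPM at E12.0, then 152 and 169 at E13.5. Both rose in RNA beyond the replicate spread (log2 fold change 4.65 ± 0.30 SE for Cdkn1b and 2.07 ± 0.25 for Sox2, edgeR adjusted p 6.09e-06 and 0.000132). All 9 genes of the epithelial marker list and all 28 of the prosensory list passed the filter on low counts, and the epithelial genes summed to 2620 and 2490 CPM at E12.0 but 1290 and 1570 at E13.5. Of 6 endothelial markers none passed, and the 8 blood and immune markers summed to 1.27 to 12 CPM per library. The 11 mesenchyme markers summed to 1270 and 1430 CPM at E12.0 but 486 and 600 at E13.5, and the 18 neuroblast and neuron markers to 877 and 991 against 2420 and 2510. The 8 glia and neural crest markers summed to 1790 and 2100 CPM at E12.0, then 647 and 682 at E13.5. These lists moved with stage, and their part in the results below was not tested.

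Of the members, 34 overlapped a promoter window, here 250 bases before to 50 bases after an annotated start (RefSeq, GRCm38.p6). Windows of 4 of the 5 such members with the largest fold are shown because they are the places where members met a start site whose letters were at hand. Each is written 5′ to 3′ on the strand of the gene, and capitals mark the bases inside the member.
Tmem267 (chr13:119487836-119488135, plus strand): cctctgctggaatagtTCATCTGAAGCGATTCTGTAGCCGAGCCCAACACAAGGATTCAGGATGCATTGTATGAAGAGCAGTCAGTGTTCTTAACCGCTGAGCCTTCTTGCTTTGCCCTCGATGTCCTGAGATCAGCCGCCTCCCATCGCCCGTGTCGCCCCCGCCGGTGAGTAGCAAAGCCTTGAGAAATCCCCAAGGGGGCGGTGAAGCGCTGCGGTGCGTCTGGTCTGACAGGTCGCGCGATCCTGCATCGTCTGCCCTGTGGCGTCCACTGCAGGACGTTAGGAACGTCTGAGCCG
Bhmg1 (chr7:19118295-19118594, minus strand): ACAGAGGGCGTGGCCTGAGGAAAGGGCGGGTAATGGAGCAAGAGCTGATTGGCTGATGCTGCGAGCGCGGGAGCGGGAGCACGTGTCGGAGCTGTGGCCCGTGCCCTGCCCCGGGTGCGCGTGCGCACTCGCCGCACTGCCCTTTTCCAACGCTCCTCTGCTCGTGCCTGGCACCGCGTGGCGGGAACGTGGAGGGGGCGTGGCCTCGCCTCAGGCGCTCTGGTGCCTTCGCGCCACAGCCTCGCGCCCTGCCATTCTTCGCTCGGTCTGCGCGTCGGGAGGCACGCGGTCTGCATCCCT
Gm33152 (chr1:78200972-78201271, plus strand): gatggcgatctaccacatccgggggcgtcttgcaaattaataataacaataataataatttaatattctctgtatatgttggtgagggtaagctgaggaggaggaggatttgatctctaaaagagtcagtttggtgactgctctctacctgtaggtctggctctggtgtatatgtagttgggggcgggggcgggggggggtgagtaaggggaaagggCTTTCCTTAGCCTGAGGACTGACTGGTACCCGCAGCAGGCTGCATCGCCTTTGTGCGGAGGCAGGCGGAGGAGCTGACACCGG
Abcg8 (chr17:84682871-84683170, plus strand): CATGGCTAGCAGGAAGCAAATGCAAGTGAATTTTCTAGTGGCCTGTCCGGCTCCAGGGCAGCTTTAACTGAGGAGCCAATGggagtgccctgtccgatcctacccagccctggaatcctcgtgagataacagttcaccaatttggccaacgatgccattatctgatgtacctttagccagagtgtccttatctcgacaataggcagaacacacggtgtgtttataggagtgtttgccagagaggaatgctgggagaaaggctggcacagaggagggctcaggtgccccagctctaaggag

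The Tmem267 member (chr13:119487852-119489265) covered 284 of the 300 bases shown, and the Bhmg1 member (chr7:19118164-19118811) covered all 300. The Gm33152 member (chr1:78201189-78201564), which lay 4052 bp from the span of Pax3, a paired-box transcription factor of neural crest and muscle precursors, covered the last 83 bases. The Abcg8 member (chr17:84682701-84682951), at a gene for a sterol transporter, covered the first 81. The letters differ: the Tmem267 window shown held 58.7% GC, the Bhmg1 window 70.3%, the Gm33152 window 52.0% and the Abcg8 window 52.3%. A second Tmem267 window, inside the Tmem267 member and not shown, held 76.0%. Counted from the first base shown, the E-box letters CANNTG occurred at bases 18 to 23 of the Tmem267 window and 80 to 85 of the Bhmg1 window. The Abcg8 window held CANNTG at bases 17 to 22 and 23 to 28 inside the member, and the Tead letters GGAATG at 243 to 248 outside it. The Sox core letters ACAAAG lay at bases 266 to 271 of the Gm33152 window, inside the member, on the strand opposite to the one shown.

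Members overlapped 39 windows in all, since a gene can have several. Their composition was close to that of all 32585 windows, with a median GC of 53.7% against 53.0% and 2.33 CpG per 100 bases in both. On either strand, overlaps allowed, GGAATG was present in 12.8% of them against 14.6% of all windows, and the AP-1 letters TGANTCA in 5.13% against 7.85%. CANNTG was present in 71.8% against 72.3%, ACAAAG in 10.3% against 18.8%, the Gata letters AGATAA in 7.69% against 11.2%, and CCACNAG, part of the Ctcf motif, in 12.8% against 15.2%. With 39 windows, each share rests on 2 to 28 windows. Of the genes shown, Abcg8 had 15 and 2 counts at E12.0 and none at E13.5, and Tmem267 had 23 and 7 counts at E12.0, then 8 and 30 at E13.5.

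The members fall into a large weak group and a small strong one. The smallest fold over the E12.0 lists that held a member, taking the authors' fold over local background at the peak, was under 3 in 2150 members (73.8%) and 3 to 5 in 728 (25%). It was 5 to 10 in 13 members and 10 or more in 23, and all of those 23 were held by all 3 E12.0 lists. Only 156 members (5.35%) were held by all 3 lists, against 1098 by replicates 1 and 2, 832 by replicates 1 and 3 and 828 by replicates 2 and 3. The median fold was 2.78, 2.95 and 3.005 in replicates 1, 2 and 3, and the highest was 38.0, 43.6 and 42.8.

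**Figure D1:**
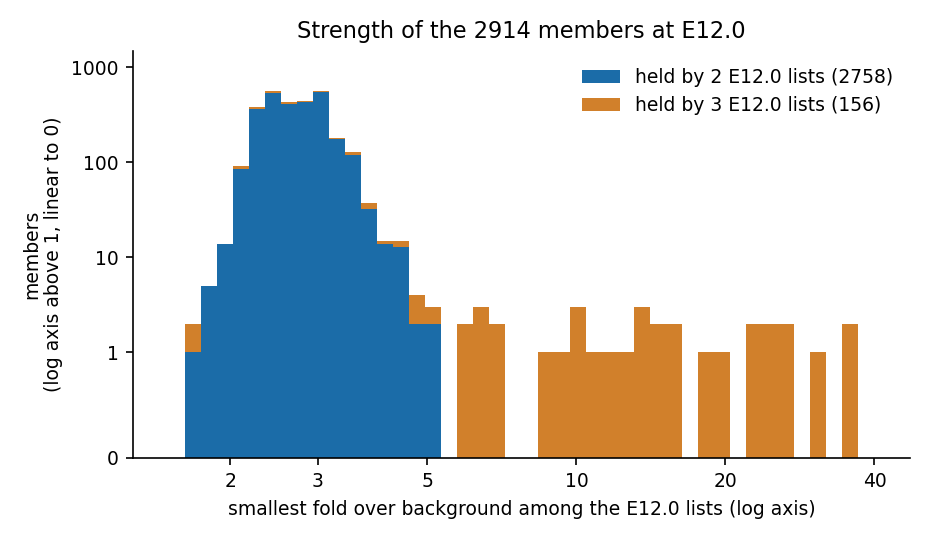
Members by their smallest fold over the E12.0 lists that held them (x, log axis) and number of members (y, log axis above 1), coloured by the number of E12.0 lists. Most of the 2914 members sit below a fold of 5, and the 23 at 10 or more are all in 3 lists.

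Regions just outside the rule had like folds. The 114095 regions of 1 E12.0 list and no E13.5 list had the same medians of 2.78, 2.95 and 3.005, with a median −log10 p of 3.43, 3.55 and 3.23 against 3.43, 3.83 and 3.35 in members. The 1662 regions of at least 2 E12.0 lists and 1 E13.5 list had median folds of 2.84, 3.28 and 3.39. In the E13.5 list that held them, their median fold was 3.06, 2.73 and 2.99 in replicates 1, 2 and 3, below the medians of 4.0, 3.45 and 3.93 over all intervals of those lists. By contrast the 33757 regions in all 6 lists had E12.0 medians of 4.75, 8.26 and 5.24. The median member was thus at the fold of regions that 1 E12.0 list alone held.

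The strong group contained the peaks with the smallest p of the E12.0 lists. Peak numbers follow p in every list, with number 1 the smallest. Of the first 10 peaks on the chromosomes analysed, 10 of 10, 6 of 9 and 8 of 9 lay in members in replicates 1, 2 and 3. Among numbers 11 to 100 the share was 28.4%, 3.33% and 22.5%, and among numbers after the first 1000 and up to 10000 it was 0.267%, 0.300% and 0.200%. The E13.5 ATAC lists lacked some of their own first numbers: 5 of the first 10 were absent in each replicate, and 186, 212 and 217 numbers in all. No number was absent from an E12.0 ATAC list, so the authors' filters differed between the stages. Whether E13.5 peaks at the strong members were among those absent was not tested, because absent peaks have no position in the files.

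**Figure D2:**
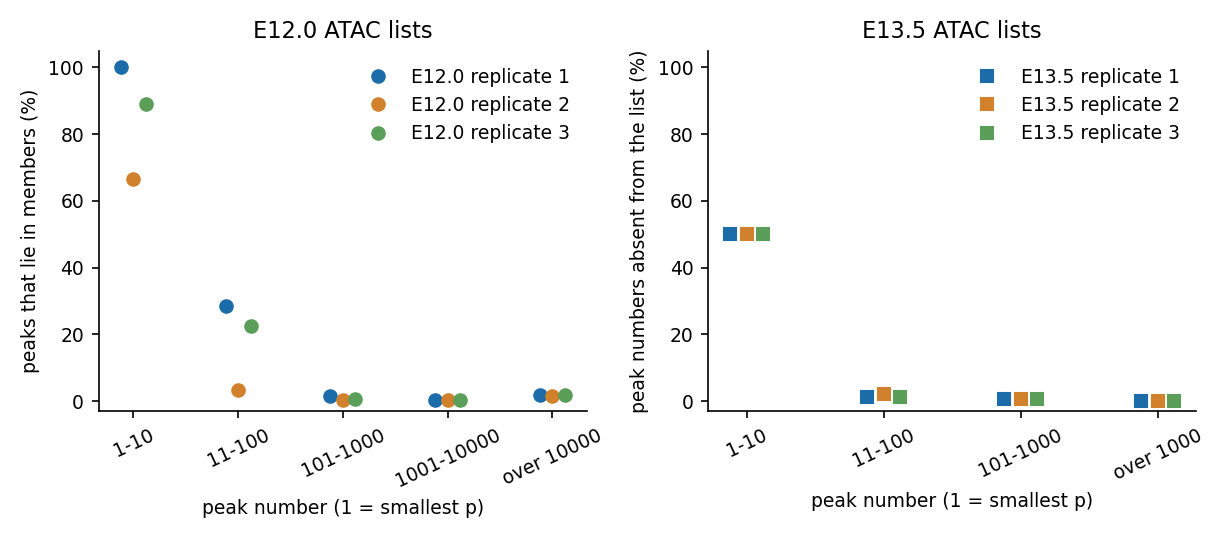
Left, share of E12.0 ATAC peaks that lay in members (y, %) by peak number (x), 1 point per replicate; right, share of peak numbers absent from each E13.5 ATAC list. The first 10 E12.0 peaks lay in members in 66.7 to 100% of cases, and 5 of the first 10 numbers were absent from each E13.5 list.

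In all, 29 members held one of the first 1000 peaks of an E12.0 list, each of them in all 3 lists. Without them, the means given below were 3.90% and 3.36% for H3K27ac at E12.0 and E13.5 and 1.98% for Tead, 54.6% of members were inside a gene, and 21.0% of genes near members were higher and 23.2% lower. Their median width was 501 bp and their median smallest fold 14.1, against 275 bp and 2.7 in the other 2885. They lay 121 to 169063 bp from the nearest E13.5 interval, and 10 of 29 were inside a protein-coding gene span. No H3K27ac or Tead interval touched 26 of the 29. The CUT&RUN lists lacked 7 to 10 of their own first 10 numbers.

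The strongest member was chr1:24612478-24613222, which overlapped the pseudogene Gm10222. It was peak number 3, 1 and 1 of the E12.0 lists, with folds of 37.1, 43.6 and 42.8, and lay 20361 bp from the nearest E13.5 interval. RNA of Gm10222 had 76 and 96 counts at E12.0, then 249 and 0 at E13.5, so the E13.5 replicates disagreed. The next was chr3:5860287-5860896, far from any protein-coding gene, with folds of 38.0, 38.2 and 36.0. A member at chr16:57391278-57391743 lay inside the overlapping genes Filip1l and Cmss1, with folds of 34.4, 31.2 and 30.4.

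Inside Chl1, which encodes a neural cell adhesion molecule, chr6:103648994-103649360 had folds of 33.1, 31.5 and 26.9. Inside Zc3h7a, which encodes a zinc finger protein, chr16:11143906-11144370 had folds of 26.6, 26.8 and 26.2 and lay 202 bp from an E13.5 interval. Inside Cdk8, a kinase of the Mediator complex, chr5:146260922-146261422 had folds of 27.6, 25.8 and 25.2. The remaining members of the first 10 by smallest fold were chr9:35305158-35305654 in the non-coding gene Gm33838, chr11:109011576-109012150 in Gm36876, chr6:3201115-3201634 and chr17:36231191-36231673. Of these 10 only chr6:3201115-3201634 met a mark, in replicate 2 of H3K27ac at E13.5 and replicate 1 of Tead. RNA of the host genes moved in both directions: Zc3h7a had 381 and 348 counts at E12.0, then 5581 and 4543 at E13.5 and rose (log2 fold change 2.30), while Cdk8 fell by 1.12 on the log2 scale, a call lost with limma on log2(TPM + 1) (adjusted p = 0.111).

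A library that took no part in the choice held few of the regions chosen without it. Regions in 2 E12.0 lists and no E13.5 list were found in the E12.0 list left out in 153 of 981 cases (15.6%), 153 of 985 (15.5%) and 155 of 1253 (12.4%) for replicates 1, 2 and 3. The mean was 14.5% ± 1.82 (SD, n = 3). Regions of 1 E12.0 list were found in 3.21%, 2.57% and 2.25%, and those of at least 2 E12.0 lists that an E13.5 list also held in 79.5%, 96.2% and 75.8%. All regions not chosen were in the E12.0 list left out in 20.0%, 26.7% and 17.9% of cases. Members were thus found again more often than regions of 1 list in each replicate. They were found less often than all regions not chosen, and less often than regions shared with E13.5.

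Absence at E13.5 was checked in the same way. When 1 E13.5 list was left out of the choice, that list held 651 of 3565 chosen regions (18.3%), 471 of 3385 (13.9%) and 663 of 3577 (18.5%), a mean of 16.9% ± 2.60 (SD, n = 3). All regions not chosen were in that list in 39.9%, 38.5% and 41.5% of cases. Regions of 1 E12.0 list and neither other E13.5 list were in it in 4.1%, 3.31% and 4.33%. On average a left-out E13.5 list thus held chosen regions no less often than a left-out E12.0 list did (14.5%). The regions were chosen differently in the 2 cases, and the means were not tested against each other. Most regions absent from 2 E13.5 lists were absent from the third as well, and at least 13.9% were not. The E13.5 lists were longer than the E12.0 lists, with 208061 to 226496 peaks covering 60.1 to 65.2 Mb against 112621 to 143817 peaks covering 27.3 to 38.8 Mb. The read depth behind the lists is unknown.

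**Figure D3:**
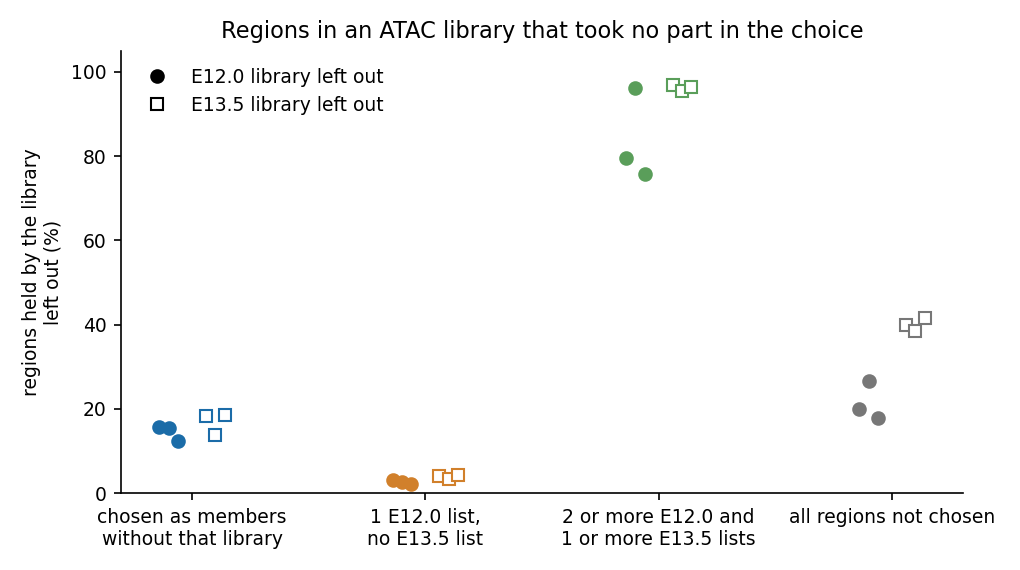
Share of regions held by an ATAC library left out of the choice (y, %), for 4 kinds of region (x); filled circles are E12.0 libraries and open squares E13.5 libraries. Regions chosen as members were held in 12.4 to 18.5% of cases, between regions of 1 E12.0 list and regions open at both stages.

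Members were short and mostly away from start sites. Their median width was 276 bp (middle 50% from 224 to 346), against 160 bp for regions of 1 E12.0 list and 895 bp for regions in all 6 lists. A promoter window was overlapped by 1.17% of members (95% Wilson interval 0.836 to 1.63, for counting error only), by 4.41% of all merged regions and by 32.6% of regions in all 6 lists. A protein-coding gene span held 54.4% of members and 51.7% of all merged regions. Another 11.7% lay within 10 kb of a gene, and 17.2% lay beyond 50 kb.

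Many members lay close to intervals of the E13.5 ATAC lists, whether or not these were also open at E12.0. The median distance to the nearest E13.5 interval was 2339 bp, against 3305 bp for regions of 1 E12.0 list. It was 500 bp or less for 655 members (22.5%) and over 10 kb for 372 (12.8%). The opposite set, regions of at least 2 E13.5 lists and no E12.0 list, had 44663 regions (13.3%). With the 112548 peaks of smallest p of each list, members rose in number to 4578 and the opposite set fell to 13403. This equalised peaks and not intervals, since 1 interval can hold several peaks. With intervals of −log10 p of at least 5 only there were 260 members and 41725 of the opposite kind. More regions appeared than disappeared under each of these settings.

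H3K27ac was found at few members at either stage. It overlapped 158 (5.42%) and 69 (2.37%) members in E12.0 replicates 1 and 2, and 150 (5.15%) and 46 (1.58%) in those of E13.5. Means were 3.89% ± 2.16 at E12.0 and 3.36% ± 2.52 at E13.5 (SD, n = 2 each), and the stages overlapped. The difference was -0.532 percentage points (two-sided exact permutation test, p = 0.667, where 0.33 is the smallest that 2 against 2 libraries allow). No loss of the mark at members was detectable with these libraries. Replicate 1 of H3K27ac at E12.0 was made with another library kit than the other 3, and that kit's part was not tested.

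The shares stood below those of all merged regions in every library, which averaged 10.6% ± 4.02 at E12.0 and 10.8% ± 8.19 at E13.5 (SD, n = 2 each). Regions in all 6 lists were overlapped in 51.8% and 33.1% at E12.0, then 65.2% and 17.4% at E13.5. Members stood above the regions of 1 E12.0 list (1.89% and 1.16%, then 1.93% and 0.892%). The order was kept among regions of at least 200 and under 400 bp. There E12.0 H3K27ac overlapped 5.34% and 2.31% of members, 2.31% and 1.29% of regions of 1 E12.0 list and 8.19% and 4.43% of all regions. Under 200 bp, members stood above all regions at E12.0 instead, with 4.76% and 2.26% against 3.34% and 2.03%. Regions of 1 E12.0 list had 1.73% and 1.11% in that class. The place of members below all regions thus depended on width.

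**Figure D4:**
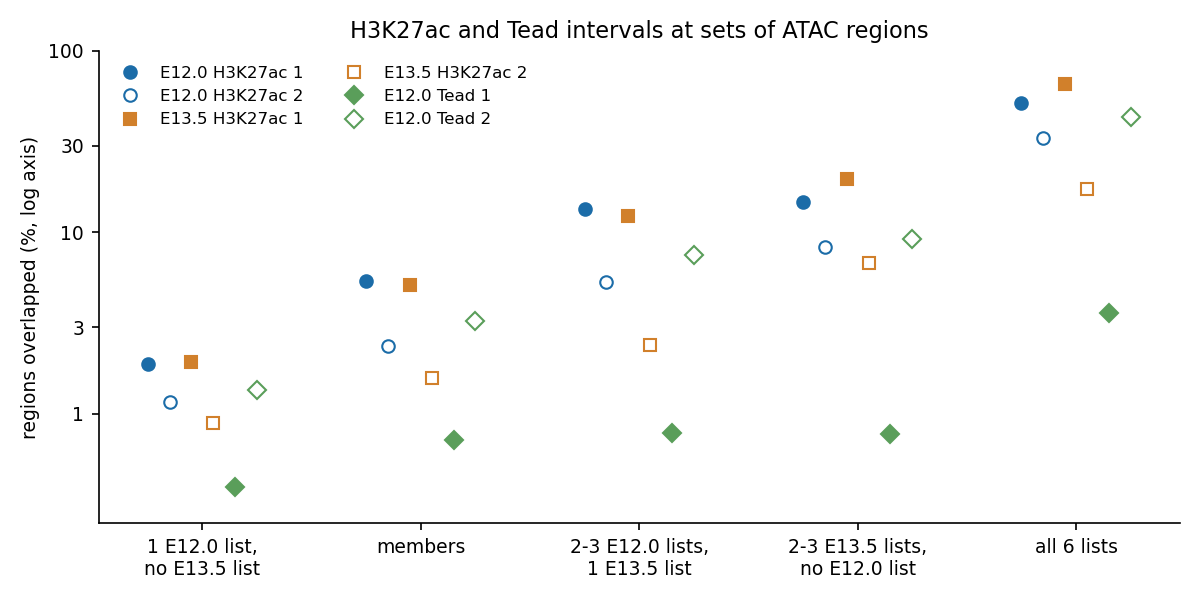
Share of regions overlapped by an H3K27ac or Tead interval (y, %, log axis) in 5 sets of ATAC regions (x), 1 point per library. Members lie between regions of 1 E12.0 list and regions open in E13.5, from 0.721% to 5.42% by library.

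Tead intervals touched 21 members (0.721%) in replicate 1 and 94 (3.23%) in replicate 2, a mean of 1.97% ± 1.77 (SD, n = 2). All merged regions were touched in 0.883% and 9.76%, and regions in all 6 lists in 3.58% and 43.3%. Both Tead libraries met at 7 members (0.240%, 95% Wilson interval 0.116 to 0.495), beside 0.395% of all merged regions. No H3K27ac and no Tead interval in any library was present at 2547 members (87.4%), against 74.1% of all merged regions and 27.2% of regions in all 6 lists.

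The members with Tead in both libraries include one inside Itln1, which encodes intelectin-1, a carbohydrate-binding lectin. This member, chr1:171527052-171527600, had folds of 3.39 and 3.97 in E12.0 replicates 1 and 3 and H3K27ac in both E12.0 libraries and in replicate 1 at E13.5. RNA of Itln1 had 38 and 37 counts at E12.0 and none at E13.5, and it fell (edgeR adjusted p = 0.000548). Taking 3 counts over the E13.5 group as the floor, the level was at least 70.7-fold lower. Some mouse strains carry a close copy of Itln1, and reads of the copies may not be separable. At chr11:85831125-85831388, 1226 bp from Tbx2, a T-box repressor of otic patterning, the member had folds of 2.02 and 2.94 in replicates 1 and 2, both Tead libraries, and H3K27ac in replicate 1 at E12.0 and replicate 2 at E13.5. RNA of Tbx2 was 134 and 139 CPM at E12.0, then 322 and 389 at E13.5, a rise (log2 fold change 1.38 ± 0.24, edgeR adjusted p = 0.00125). The Itln1 and Tbx2 members thus sat beside genes that moved in opposite directions.

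Of the other members with both Tead libraries, chr2:77959777-77959943 and chr2:77996918-77997285 had Cwc22, a splicing factor gene with copies in some mouse strains, as nearest gene. The others were chr19:21160883-21161275, chr17:13206649-13207081 and chr7:47596761-47597180. The last lies in Mrgpra3, an itch receptor gene with no counts in any RNA library. The chr19 member was the only one of the 7 whose H3K27ac was in both E12.0 libraries but neither library of E13.5.

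H3K27ac in both E12.0 libraries and in no E13.5 library was present at 10 members (0.343%, 95% Wilson interval 0.187 to 0.631), beside a background of 0.557% over all merged regions. The opposite pattern was present at 5 members (0.172%, background 0.517%). The E12.0 pattern was found inside Auts2, a gene of neural development, at chr5:132527343-132527890, and inside Acad10 at chr5:121647555-121647747. It was also found 11011 bp from F3, the tissue factor gene, at chr3:121712229-121712525, and 13453 bp from T, the brachyury gene of mesoderm, at chr17:8455950-8456284. RNA of T had no counts in any library. None of Auts2, Acad10, F3, Pip5k1b and Pdzd8, the tested ones of the named nearest genes, passed the edgeR test, with adjusted p of 0.186 for Acad10 and 0.654 for F3. The sixth tested gene, Pitpnm2, which encodes a membrane-associated phosphatidylinositol transfer protein and was named after its values were seen, has such a member inside it. Pitpnm2 measured 12.8 and 15.1 CPM at E12.0, then 4.0 and 1.74 at E13.5 and fell (log2 fold change -2.28 ± 0.58, edgeR adjusted p = 0.00894), a call lost with limma on log2(TPM + 1) (adjusted p = 0.134).

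The nearest protein-coding genes of members fell about as often as genes in general. In all, 2028 genes were the nearest gene of a member at most 50 kb away. Of these, 1981 were in the RNA table and 1428 passed the filter on low counts. At E13.5, 332 of the 1428 were lower (23.2%) and 299 higher (20.9%, edgeR adjusted p under 0.05). Over all 15982 genes tested the background was 23.5% lower and 22.4% higher, and over the 12484 protein-coding ones 21.2% and 23.0%. The median log2 fold change was -0.01 near members, 0.05 over all genes tested and 0.10 over protein-coding genes. The shares near members are close to the background and are not a result about the members.

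**Figure D5:**
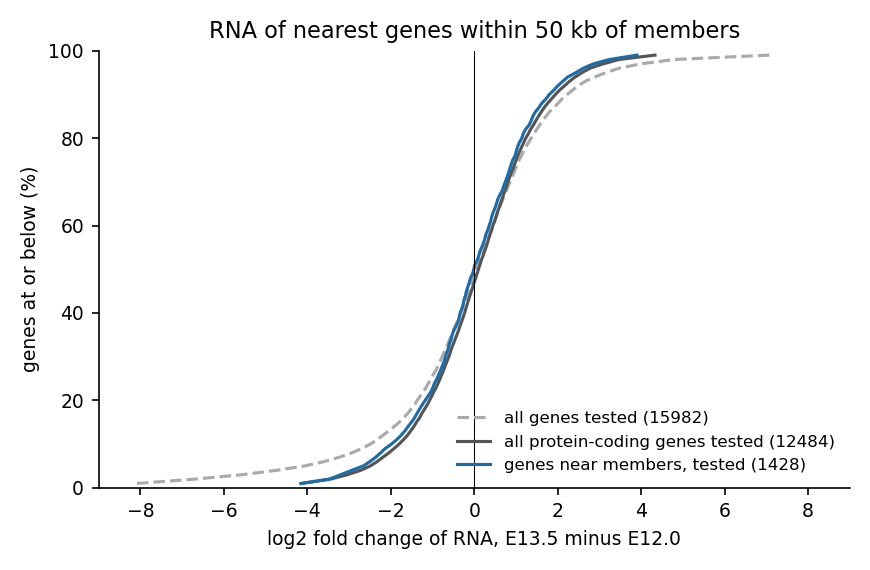
Cumulative share of genes (y, %) by log2 fold change of RNA from E12.0 to E13.5 (x), from percentile 1 to 99. The 1428 genes near members follow the 12484 protein-coding genes, with medians of -0.01 and 0.10.

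Some subsets held a larger share of lower genes. Near members with H3K27ac in at least 1 E12.0 library, 41 of 134 genes were lower (30.6%) and 18 higher (13.4%). Near members with Tead in at least 1 library, 23 of 80 were lower (28.8%) and 10 higher (12.5%). Near members of all 3 E12.0 lists, 24 of 77 were lower (31.2%) and 13 higher (16.9%), and near the 127 of these outside the strong group 21 of 66 were lower (31.8%). Near regions of at least 2 E12.0 lists and 1 E13.5 list the shares with H3K27ac and with Tead were 27.8% and 34.3% lower. Near regions in all 6 lists they were 22.9% and 23.2%. These subsets share genes, and whether their shares differ from the background was not tested.

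Among the genes near members, the drop of Dact2, an antagonist of Dishevelled in Wnt and planar polarity signalling, had the smallest adjusted p of the named lower genes. Dact2 measured 130 and 190 CPM at E12.0, then 1.71 and 2.59 at E13.5 (log2 fold change -6.21 ± 0.37, edgeR adjusted p = 4.54e-06). Its member lay 21067 bp away. The other named genes with the largest falls were low at E12.0. Besides Itln1, RNA of Esrrb, a nuclear receptor, was 1.10 and 2.83 CPM at E12.0 and 0 in both E13.5 libraries, which by the same floor is at least 30.2-fold lower. Likewise Ccl28, a chemokine, was at least 22.6-fold lower and Phospho1, a phosphatase of bone mineralisation, at least 19.8-fold lower. Lyz1, a lysozyme close in sequence to Lyz2, had 117 and 96 counts at E12.0, then 7 and 0 at E13.5. Epas1, the hypoxia factor HIF-2α, had 33 counts over the E12.0 libraries and 2 over the E13.5 libraries, a CPM ratio of 46.7 (95% exact interval 11.9 to 401, counting error only). Ppp2r2c, a subunit of protein phosphatase 2A, had 40 and 3, a ratio of 37.7 (12 to 191).

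Several genes near members went the other way. Gna14, a G protein subunit whose span holds a member, had 3 counts over the E12.0 libraries and 1429 over the E13.5 ones, a ratio of 168 (95% exact interval 57.5 to 818). Ccdc171, a coiled-coil gene, rose from 0.550 and 0.353 CPM to 26.0 and 23.0 (log2 fold change 5.75 ± 0.57, edgeR adjusted p = 4.26e-05). Zfp982, one of a family of similar zinc finger genes whose reads may not be separable, was at 0 in both E12.0 libraries and had 143 and 177 counts in the E13.5 ones, at least 37.7-fold higher with 3 counts over the E12.0 group as floor. Pipox, an oxidase of lysine breakdown, had 0 and 1 counts at E12.0, then 140 and 152 at E13.5. Lgr6, an R-spondin receptor, and Ptprn2, a receptor of secretory granules, had ratios of 44.2 (7.79 to 1760) and 42.8 (7.53 to 1700). Arhgef37 and Slc28a3 were absent at E12.0 and had 73 and 37 counts over the E13.5 libraries. Each of the calls of Slc28a3, Arhgef37, Ptprn2, Ppp2r2c, Epas1 and Ccl28 was lost in at least 1 edgeR fit without 1 library, where adjusted p reached 0.182 for Slc28a3, 0.0654 for Arhgef37, 0.0539 for Ptprn2, 0.124 for Ppp2r2c, 0.0687 for Epas1 and 0.0505 for Ccl28. With limma on log2(TPM + 1) the calls of Esrrb (adjusted p = 0.08), Ccl28, Epas1, Ppp2r2c and Slc28a3 were lost, and DESeq2 lost that of Slc28a3 (0.128). Phospho1 had too few counts to be tested without either E12.0 library, Esrrb, Ccl28 and Epas1 without replicate 2 of E12.0, and Slc28a3 without replicate 2 of E13.5.

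Of 239 genes in 16 lists for this tissue, 48 were the nearest gene of a member. Of these, 43 were tested, 11 rose (25.6%), 12 fell (27.9%) and 20 did not pass the test, beside 22.4% and 23.5% over all genes tested. The split depended on the test, and with limma on log2(TPM + 1) 15 rose and 5 fell, where 42.7% and 13.1% of all genes did. Over all 21631 protein-coding genes 9.38% were the nearest gene of a member, and those genes had long spans, with a median of 55.8 kb against 17.3 kb over all. No gene of the hair cell, glia, endothelial or blood lists was near a member.

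Prosensory genes, which mark the sensory progenitors, were near members in 13 of 28 cases (46.4%), with a median span of 9.88 kb over the list. Of these 13, RNA of Isl1, Lin28b, Tbx2 and Six2 rose, 4 fell, with Hmga2 and Lfng among them, and 5 did not pass the test. With limma on log2(TPM + 1) 6 rose and 2 fell, and in the edgeR fits without 1 library 2 or 3 fell, as did 3 with replicate number as a block. In the whole list 13 of 28 rose and 7 fell. Six2, a homeobox gene, measured 66.6 and 56.5 CPM at E12.0, then 276 and 391 at E13.5 (log2 fold change 2.44 ± 0.28, edgeR adjusted p = 9.36e-05). Its strongest member, chr17:85651967-85652579, had folds of 3.14 and 3.18 and lay 10156 bp away.

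Isl1, a LIM homeobox factor of sensory and neural precursors, measured 364 and 280 CPM at E12.0, then 844 and 808 at E13.5 and rose (log2 fold change 1.36 ± 0.25, edgeR adjusted p = 0.00175). The Isl1 member, chr13:116279879-116280191, lay 43 bp from an E13.5 interval. Hmga2, a chromatin protein of growing embryonic tissue, measured 2150 and 1910 CPM and then 504 and 540, a fall of 1.96 on the log2 scale. Lfng, which modifies Notch, measured 32.9 and 36.0 CPM and then 8.0 and 6.1 (log2 fold change -2.29 ± 0.37, edgeR adjusted p = 0.000708). Lin28b, an RNA-binding protein that restrains let-7 microRNAs, measured 135 and 128 CPM and then 236 and 202 (log2 fold change 0.73), and this call was lost without any of 3 of the libraries (edgeR adjusted p 0.112 to 0.133). Eya1 measured 671 and 664 CPM at E12.0, then 807 and 814 at E13.5 (edgeR adjusted p = 0.359) and Pax2 6.46 and 6.36 against 4.10 and 3.22 (0.283). Members of Eya1 and Pax2 lay inside the genes, at chr1:14263212-14263432 and chr19:44800299-44800826. Members near prosensory genes thus accompanied both higher and lower RNA.

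Genes of Yap, Tead and the Hippo pathway were near members in 6 of 31 cases (19.4%). RNA of the co-activator Wwtr1, the DNA-binding factor Tead1 and the Yap-binding scaffold Amotl1 fell, and that of the upstream scaffold Wwc1 rose. In the whole list 11 of 29 tested genes fell and 5 rose. Wwtr1 measured 269 and 179 CPM at E12.0, then 49.1 and 53.5 at E13.5 (log2 fold change -2.12 ± 0.28, edgeR adjusted p = 0.000215). Its member, chr3:57477262-57477617, lay inside the gene with folds of 2.95 and 4.01 in replicates 2 and 3. Tead1 measured 78.5 and 127 CPM and then 38.0 and 26.4 (log2 fold change -1.68 ± 0.32, edgeR adjusted p = 0.00187), with a difference of -0.01 on the log2(TPM + 1) scale (limma adjusted p = 0.981). The Tead1 member, chr7:112699541-112699813, had folds of 3.66 and 3.01 in replicates 1 and 3 and H3K27ac in replicate 2 at E13.5 only. Lats2, a Hippo kinase, measured 51.4 and 43.8 CPM and then 38.4 and 33.1 (edgeR adjusted p = 0.257), with its member at chr14:57711870-57712064.

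Genes listed as Yap and Tead targets were near members in 7 of 30 cases (23.3%). Amotl1, Ptpn14 and Myof fell, Ccdc80 and Rbms3 rose, and F3 and Lats2 did not pass the test. With limma on log2(TPM + 1) the calls of Amotl1 (adjusted p = 0.0864), Ptpn14 (0.474) and Myof (0.141) were lost, and that of Myof was also lost without any of 3 of the libraries (edgeR adjusted p 0.0618 to 0.112). Across the whole list 8 of 27 fell and 5 rose. Ccdc80, a secreted matrix protein, measured 77.6 and 63.2 CPM at E12.0, then 168 and 186 at E13.5 (log2 fold change 1.33 ± 0.25, edgeR adjusted p = 0.00169). The Ccdc80 member, chr16:45095333-45095656, had the largest smallest fold of the members near listed genes, 3.83. Rbms3, an RNA-binding protein, measured 51.3 and 53.7 CPM and then 115 and 88.1, and its call was lost without any of 3 of the libraries (edgeR adjusted p 0.0517 to 0.101). No Tead interval touched the members of Wwtr1, Tead1, Lats2, Ccdc80, Rbms3 or F3.

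Of 33 cell cycle genes 1 was near a member (3.03%), beside 9.38% of all protein-coding genes. With 1 gene, this share is not a result about the members. The gene was Cdk6, a kinase of G1, 46346 bp away. In the whole list 29 of the 33 fell. Cdk6 measured 97.8 and 99.0 CPM at E12.0, then 19.6 and 10.8 at E13.5 (log2 fold change -2.70 ± 0.34, edgeR adjusted p = 0.000165). Rorb, a nuclear receptor on the medial cochlear list, rose from 158 and 146 CPM to 691 and 431 (log2 fold change 1.88 ± 0.29, edgeR adjusted p = 0.000533), and its member chr19:18938680-18939025 lay inside it. On the nonsensory list Fgf9, a growth factor, fell from 171 and 98.2 CPM to 38.8 and 47.8. On the patterning list Irx5 and Sall3 rose, Emx2 fell, Tbx3 did not pass the test and Hoxb1 was not tested. The call of Emx2 was lost without any 1 library (edgeR adjusted p 0.0786 to 0.113), and that of Sall3 without replicate 1 of E12.0 (0.0688). Krt18, an epithelial keratin, rose from 169 and 177 CPM to 361 and 442.

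Mesenchyme genes were near members in 5 of 11 cases (45.5%), and none of the 4 tested passed the test. Prrx1, with a member inside it at chr1:163257640-163257820, had 7 or fewer counts over each stage, and Col1a2 measured 0.413 and 4.83 CPM at E12.0, then 4.05 and 0.593 at E13.5. Of the 5 neuronal genes near members, Isl1 alone passed the test, and Pou4f1 measured 2.48 and 1.29 CPM at E12.0, then 0.00 and 0.466 at E13.5. Members therefore also lay near genes of other cell types with little RNA in these cells.

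Members were mostly scattered 1 to a gene. Of the 2028 genes 1734 had 1 member, 236 had 2 and the others had 3 to 8. Tmem267 had 8 members and Sfi1 and Zfp536 had 6 each. The 8 members of Tmem267 lay between chr13 positions 119487852 and 119616539, and the 6 of Sfi1, a centrosome protein gene, between chr11 positions 3184301 and 3199986. The Sfi1 members had low smallest folds, from 1.62 to 2.84, and were 2212 to 16507 bp from any E13.5 interval. RNA of Sfi1 measured 123 and 158 CPM at E12.0, then 62.1 and 52.7 at E13.5 (log2 fold change -1.29 ± 0.26, edgeR adjusted p = 0.00247), and on the log2(TPM + 1) scale the call was lost (limma adjusted p = 0.0882). Zfp536, a zinc finger repressor of neuronal differentiation, measured 20.4 and 19.9 CPM at E12.0, then 22.8 and 15.4 at E13.5 (edgeR adjusted p = 0.879), with its members spread over its 456 kb span.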

How the data were processed

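Groups and replicate numbers came from the sample titles. The ATAC, H3K27ac and Tead peak lists were deposited by the authors as 1 list per library, with fold (a ratio over local background), −log10 p and −log10 q per peak. Per the submitters' processing notes STAR, UMI-tools and MACS2 were used, with GRCm38 (mm10). No versions were stated. A score column of the deposited lists was not used. The smallest deposited −log10 p was 2.00 to 2.51. The RNA tables deposited by the authors hold expected counts per gene. TPM was computed from these and the deposited effective lengths.

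Expected counts were rounded (9412326 and 9810603 per library at E12.0, 17057751 and 19570946 at E13.5) and tested in edgeR 4.0.16 under R 4.3.3 (filterByExpr, TMM, quasi-likelihood F test, no covariate). Benjamini-Hochberg adjustment ran over 15982 of 48709 genes, with a threshold of 0.05. CPM uses TMM-scaled libraries. Counts of the 2 libraries of a stage were not alike within counting error (chi-square over its degrees of freedom 29.7 and 46.7), so each was counted as 1 sample. Genes with no count in a stage were given a bound against 3 counts over that group (0.19 CPM at E12.0, 0.0673 at E13.5). Functions were tested on simulated data.

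A library held a region when its interval overlapped it by 1 bp. Nearest genes were protein-coding spans of a RefSeq table (GRCm38.p6), within 50 kb. That table gives no strand and start windows covered 17274 of 21631 genes, so spans replaced the planned start sites for all genes. No genome sequence was used, so members outside promoter windows have no sequence here, and exons and introns were not separated. Members and gene lists were chosen with earlier results of these data known. The naming rule took the 10 members with the largest smallest fold, up to 8 with H3K27ac in both E12.0 libraries only, up to 8 with Tead in both, up to 15 near listed genes, up to 5 at promoters, their nearest genes, the 8 genes with the largest rise and the 8 with the largest fall, and the 3 with the most members. Other listed genes near members were named after their values were seen. Single results of some listed genes are not reported here.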

Additional observations from a re-analysis of the deposited data

How the results depend on the processing

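Shares named here had main values of 2914 members, 3.89% and 3.36% for H3K27ac at E12.0 and E13.5, 1.97% for Tead, 20.9% of near genes higher, 23.2% lower, and 54.4% of members inside a gene. With −log10 p of at least 5 these were 260 members, 7.31%, 7.69%, 3.46% for Tead, 18.9% higher and 46.2% inside a gene. With the same number of peaks per ATAC list they were 4578 members, 8.97%, 7.48% and 4.31% for Tead. For members of all 3 E12.0 lists they were 156 members, 6.09% for H3K27ac at E13.5, 16.9% higher, 31.2% lower and 42.3% inside. Without 1 library they ranged over 981 to 3577 members, 13.1 to 21.3% higher, 17.8 to 24.7% lower, 52.0 to 54.9% inside, 2.37 to 5.42% and 1.58 to 5.15% for H3K27ac and 0.721 to 3.23% for Tead. Leaving out an E12.0 list gave 981, 985 and 1253 members, since both other lists must then hold a region. Without a filter on low counts 19.3% were higher and 18.9% lower, beside 15.2% and 14.7% of all genes. With limma on log2(TPM + 1) 40.6% were higher and 9.31% lower, beside 42.7% and 13.1% of all genes. The cause of these changes was not tested.

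The replicate numbers did not pair the libraries (correlation of deviations 0.00816). With 2 libraries per stage both pairs give the same value by construction. With replicate number as a block 20.9% were higher and 22.8% lower, and the call of Slc28a3 was lost (edgeR adjusted p = 0.0607) while that of Cwc22 was gained (0.0497). With overlap in the middle 200 bases only, chosen after seeing the data, H3K27ac met 3.52% and 2.78% of members and 8.90% and 8.84% of all regions, on average per stage. With H3K27ac and Tead intervals of −log10 p of at least 5 only, they met 2.16% and 1.82% of members, and 1.03%. Of 65 genes recomputed under 8 alternatives, none of the 44 called changed sign, 12 that were not called did in at least 1 alternative (Chl1, F3, Lats2, Gjb6 and Auts2 among them), and 43 calls were lost and 12 gained over all alternatives. Of the 23 called genes near members on the lists, including those not reported singly, 2 changed sign with limma on log2(TPM + 1). The depth of the ATAC and CUT&RUN libraries is unknown, which limits what absence from a list shows.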

Other observations

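Members were spread over all 20 chromosomes analysed. Chromosome 3 held 119 members (4.08%) against 6.06% of all merged regions, chromosome 17 held 145 (4.98%) against 3.84%, and chromosome X held 35 (1.20%) against 1.87%. Among members, 186 overlapped an H3K27ac interval of at least 1 E13.5 library, and 208 one of at least 1 E12.0 library. The E13.5 shares by library, 5.15% and 1.58%, were below the 16.6% and 4.97% of all merged regions.

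Genes near members of only 2 E12.0 lists were lower in 22.8% and higher in 21.0% of 1369 tested cases, and those near the strong group in 3 and 1 of 12. The mitochondrial ribosomal RNA mt-Rnr2 took 17.0% and 13.2% of the E12.0 RNA counts and 0.295% and 0.180% of the E13.5 counts. Its part in the shares of higher and lower genes was not tested.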
